A study of Mus musculus with 4 samples.

Results

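The genes of antigen presentation by major histocompatibility complex (MHC) class I and class II molecules were followed in single-cell transcriptomes of the mouse brain. The 8 genes were taken by symbol from 31053 genes in the count matrices: the class II chains H2-Aa, H2-Ab1 and H2-Eb1, their invariant chain Cd74, the class I heavy chains H2-K1 and H2-D1, their light chain B2m, and the peptide transporter subunit Tap1. All 8 were found. Each library came from the whole brain of 1 male C57BL/6J mouse at postnatal day 90, dissociated with enzymes. In the no-inhibitor group (n = 2) the solutions held no drugs. In the inhibitor group (n = 2) perfusion, dissection and digestion solutions held the transcription inhibitors actinomycin D and triptolide, and the dissection and digestion solutions also held the translation inhibitor anisomycin. The animals were perfused and the meninges were removed as far as possible, but cells were not sorted, so immune cells of blood and brain borders can be present beside those of the tissue.

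MHC class I molecules sit on most nucleated cells and show peptides from the cell's own proteins to CD8 T cells. A heavy chain pairs with B2m and is loaded in the endoplasmic reticulum with peptides that the Tap1 and Tap2 transporter brings in. MHC class II molecules are made mainly by dendritic cells, B cells and macrophages and show peptides from engulfed material to CD4 T cells. Cd74 blocks their groove until it is cut away, for which Ctss is a protease, and H2-DM then exchanges the last fragment for a peptide. The class II genes are switched on by Ciita. In the C57BL/6 strain the H2-Ea gene is not functional, so that H2-Eb1 RNA is made while the I-E molecule is not. Resting microglia, the macrophages of the brain tissue, are known for low class II levels.

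Libraries held 5134359 to 7529804 unique molecular identifiers (UMIs, barcodes that let each captured RNA molecule be counted once). After filtering, 2081 to 2796 cells per library and 9811 in all were kept, with medians of 1439.5 to 1681 UMIs per cell. The libraries shared 67 cell barcodes, 44 of them among kept cells. Kept cells fell into 14 classes named from marker genes, and the 8 genes and the other genes of the pathway were left out of the clustering. The ending "-like" marks that a name rests on marker expression alone. Levels are given as CPM, a gene's UMIs scaled by all UMIs of the class in that library to the same total. The chemistry tags each RNA molecule once near its 3′ end, so values were not divided by gene length. Levels between classes are a description over the 4 libraries, with no test. Values of 4 libraries are listed in the order no-inhibitor replicates 1 and 2, then inhibitor replicates 1 and 2.

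On the GRCm38 assembly 6 of the 8 genes lie on chromosome 17, within 1271 kb of each other. H2-K1 spans 33996017 to 34000347 (minus strand), Tap1 34187553 to 34197225 (plus), H2-Ab1 34257689 to 34269419 (plus), H2-Aa 34282744 to 34287823 (minus), H2-Eb1 34305867 to 34316674 (plus) and H2-D1 35262730 to 35267499 (plus). B2m lies outside the complex, on chromosome 2 from 122147686 to 122153083 (plus strand). The location of Cd74 is not given here. Of 38 further genes of the pathway, 17 also lie on chromosome 17.

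RefSeq promoter entries (250 bases before to 50 after a start site, GRCm38.p6) were at hand for 6 of the 8 genes, and H2-Ab1 and Cd74 are named only. MHC promoters are known for a shared module of X and Y boxes. The upstream stretches of 5 genes are shown because their letters can be set beside the levels described next. Each is written 5′ to 3′ along its own gene. Capitals mark the Y box core (GATTGG or CCAATC), the core shared by the X2 box and the cyclic AMP response element, here the CRE site (TGACG or CGTCA) and a κB type site (GGGATTCC or GGAATCCC), searched on both strands. In H2-Aa the matches of both strands of the CRE site overlap.

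H2-Aa (chr17:34287824-34287997, minus strand): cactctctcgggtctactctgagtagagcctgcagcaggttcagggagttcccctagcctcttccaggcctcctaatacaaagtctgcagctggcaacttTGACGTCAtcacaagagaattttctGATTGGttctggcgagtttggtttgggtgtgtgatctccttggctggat
H2-Eb1 (chr17:34305707-34305866, plus strand): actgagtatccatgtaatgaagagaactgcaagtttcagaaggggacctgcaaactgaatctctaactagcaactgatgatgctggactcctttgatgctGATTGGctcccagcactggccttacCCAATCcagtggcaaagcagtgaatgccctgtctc
H2-K1 (chr17:34000348-34000464, minus strand): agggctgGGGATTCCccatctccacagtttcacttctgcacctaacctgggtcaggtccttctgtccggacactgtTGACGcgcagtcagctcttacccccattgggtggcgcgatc
H2-D1 (chr17:35262916-35263090, plus strand): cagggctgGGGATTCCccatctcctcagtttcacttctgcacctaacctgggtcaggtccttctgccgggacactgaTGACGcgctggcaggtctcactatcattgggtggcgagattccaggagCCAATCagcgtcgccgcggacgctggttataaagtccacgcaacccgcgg
B2m (chr2:122147508-122147682, plus strand): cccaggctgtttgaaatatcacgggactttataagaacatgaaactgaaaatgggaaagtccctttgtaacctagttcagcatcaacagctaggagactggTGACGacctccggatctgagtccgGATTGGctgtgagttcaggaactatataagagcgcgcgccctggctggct

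The Y box core lay at position -49 from the start site in H2-Aa, -54 in B2m and -53 in H2-D1, counted to its first base. In H2-Eb1 the nearer of its Y box cores lay at -35. H2-K1 had 2 promoter entries, of which the first listed was used, and its positions depend on that choice of start site. There the Y box core lay past the start site, at position 8, and is not in the stretch shown. The κB type site was found in H2-K1 and H2-D1 and in none of the other 4 promoters, at -110 and -170. The heavy chain promoters share an identical run of 47 bases, found in no other gene's promoter, and the run holds the κB type site. Among all 32544 promoter entries of this length 16.1% held the Y box core, 20.9% the CRE site and 1.07% the κB type site. A match is a description of letters and no evidence of binding.

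H2-K1 and H2-D1 are paralogs of similar sequence, so reads could be split between them or lost. In the last 600 bases of the longest coding transcript, where the tags arise, 0 of 503 windows of 98 bases were shared exactly with another gene, for each of the 8 genes. Windows with mismatches were not searched.

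Class II RNA was concentrated in a small class. Macrophage/monocyte-like cells, 165 of 9811 cells, held 89.8% of the 8957 class II UMIs (H2-Aa, H2-Ab1, H2-Eb1 and Cd74 together) in kept cells. Their share was 94.4%, 92.9%, 94.0% and 73.3% in the 4 libraries. Microglia-like cells, 3228 in number, held 6.22% of class II UMIs, and 22.7% in inhibitor replicate 2 against 1.95% to 3.34% in the other 3 libraries. Fibroblast-like cells held 2.29%. By gene, the macrophage/monocyte-like share was 93% for H2-Aa, 92.2% for H2-Eb1, 88.6% for Cd74 and 88.1% for H2-Ab1.

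In macrophage/monocyte-like cells Cd74 stood at 9271, 18370, 17570 and 10970 CPM. H2-Aa, the alpha chain, stood at 3109, 6201, 5760 and 3538 CPM. H2-Ab1, its beta chain partner, stood at 2213, 4775, 4068 and 2225 CPM, and H2-Eb1 at 2088, 4320, 3879 and 2395 CPM. For each of the 4 genes the lowest and the highest library were the 2 no-inhibitor libraries, so the groups overlapped. The chains kept nearly fixed proportions while their level varied: Cd74 UMIs per H2-Aa UMI ran from 2.96 to 3.10, H2-Aa per H2-Ab1 from 1.30 to 1.59 and H2-Eb1 per H2-Ab1 from 0.905 to 1.08 over the 4 libraries. H2-Eb1 RNA was thus counted about as often as H2-Ab1 RNA.

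The next classes in the order of Cd74 levels were fibroblast-like cells, at 122, 290, 159 and 154 CPM, and microglia-like cells, at 41.9, 46.1, 30.7 and 218 CPM. The ranges of the libraries did not overlap between macrophage/monocyte-like cells and the next class for any of the 4 class II genes. Below them, fibroblast-like and microglia-like ranges overlapped for Cd74, microglia-like and olfactory ensheathing-like ranges did not, and all lower neighbours overlapped. For H2-Aa, H2-Ab1 and H2-Eb1 every neighbouring pair after the top class overlapped. At the low end, ependymal-like cells had 2 to 5 H2-Ab1 UMIs in each library (11.9 to 20.7 CPM) and 0 Cd74 UMIs among 810482 UMIs, which allows up to 3.70 CPM. H2-Ab1 thus ranked above Cd74 in ependymal-like cells, whereas in macrophage/monocyte-like cells Cd74 was far above H2-Ab1. These intervals and floors cover counting error only.

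**Figure D1:**
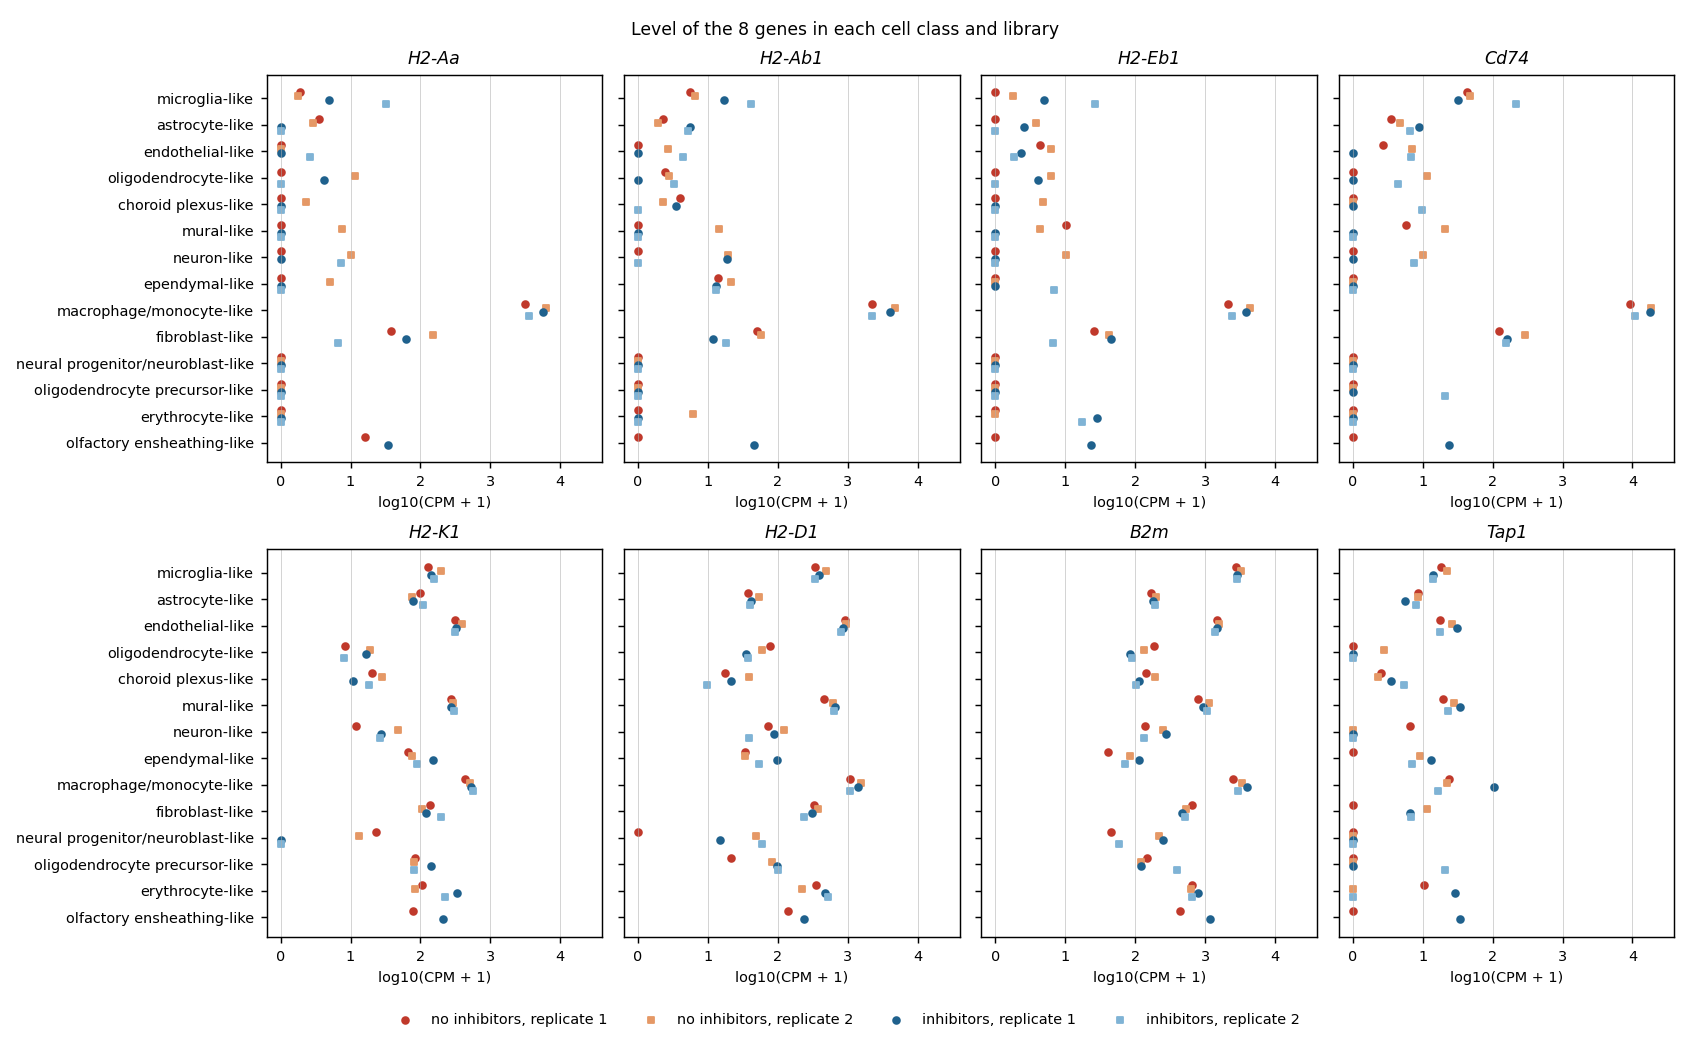
Level of each of the 8 genes (log10 of CPM + 1, horizontal axes) in 14 cell classes (vertical axes). Each point is 1 library, coloured by library. The class II genes peaked in macrophage/monocyte-like cells, with Cd74 at 9271 to 18370 CPM, while B2m was spread over all classes.

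To compare classes of unequal depth, cells were randomly thinned to 1000 UMIs apiece, which left out 677 of 4934 no-inhibitor cells and 749 of 4877 inhibitor cells with fewer UMIs. At that depth Cd74 was seen in 35.1% to 61.1% of macrophage/monocyte-like cells per library. Fibroblast-like cells followed with 5.56% to 15.2%, and microglia-like cells with 2.82% to 5.71% (3.75% to 6.26% unthinned). In astrocyte-like cells, taken as a class that should lack the gene (median depth 1534 UMIs per cell, against 1380 in microglia-like cells), it was 0% to 0.726% (0.423% to 0.844% unthinned). In endothelial-like cells Cd74 was seen in 0 of 1460 cells in this draw (0% to 1.23% unthinned). At 500 UMIs it was seen in 2 of 1680 of these cells. The share of microglia-like cells with a Cd74 UMI lay above the astrocyte-like share in each library, while for H2-Aa, at 0% to 0.166% in 3 libraries, microglia-like cells lay at the astrocyte-like level of 0% to 0.185% and reached 1.99% in inhibitor replicate 2.

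Within the macrophage/monocyte-like class the class II genes were not spread evenly. Of its 165 cells, 92 had no class II UMI and 61 had at least 10, a limit set to describe the upper range and not a cell type. The share with at least 10 was 25.0% (95% Clopper-Pearson interval 13.2% to 40.3%), 42.2% (27.7% to 57.8%), 45.5% (28.1% to 63.6%) and 37.2% (23% to 53.3%), and these intervals overlapped. In such cells class II RNA made up 4.6% to 5.95% of all UMIs per library, with a median of 55 to 171 and a maximum of 366 class II UMIs in a cell. Few cells lay between: 65 cells had 3 or more class II UMIs against the 61 with 10 or more.

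The class was also mixed by its markers. Cells were parted by 2 or more detected markers of a list, with lymphocyte and neutrophil lists taken first, then the macrophage/monocyte list, then the dendritic list. Of 121 cells parted by macrophage/monocyte markers, 48 had 10 or more class II UMIs and 62 had none. All 3 cells parted by dendritic cell markers had at least 10, as had 7 of 10 cells parted by B cell markers. The 19 cells with T/NK cell markers and the 5 with neutrophil markers had 0 class II UMIs. In the 61 class II-rich cells Lyz2, a lysozyme of myeloid cells, was seen in 53, beside 78 of the other 104 cells. The monocyte chemokine receptor Ccr2 was seen in 36 beside 8. All other macrophage/monocyte markers were seen in a smaller share of the class II-rich cells. Among these the macrophage mannose receptor Mrc1 was seen in 19 beside 49, Pf4 in 14 beside 62 and Lyve1 in 0 beside 24. Of the dendritic list the lectin Cd209a was seen in 13 beside 6, Batf3 in 10 beside 0 and Flt3 in 7 beside 1. Itgax was seen in 5 beside 0, Siglecg in 5 beside 2, Xcr1 in 1 beside 0 and Zbtb46 in 3 beside 4. But Clec10a was seen in 6 beside 19, Ccr7 in 0 beside 1 and Clec9a in neither set. The dendritic list summed to 909 beside 280 CPM. Pooled class I levels differed less between the 61 class II-rich cells and the other 104. B2m stood at 3616 and 2762 CPM, H2-D1 at 1266 and 1301 CPM and H2-K1 at 438 and 567 CPM. By marker part they were uneven. H2-D1 stood at 2426 CPM in cells with T/NK cell markers beside 1164 CPM in those parted by macrophage/monocyte markers, and H2-K1 at 1213 beside 433 CPM. B2m stood at 1163 CPM in cells with neutrophil markers beside 3033 CPM in those parted by macrophage/monocyte markers.

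**Figure D2:**
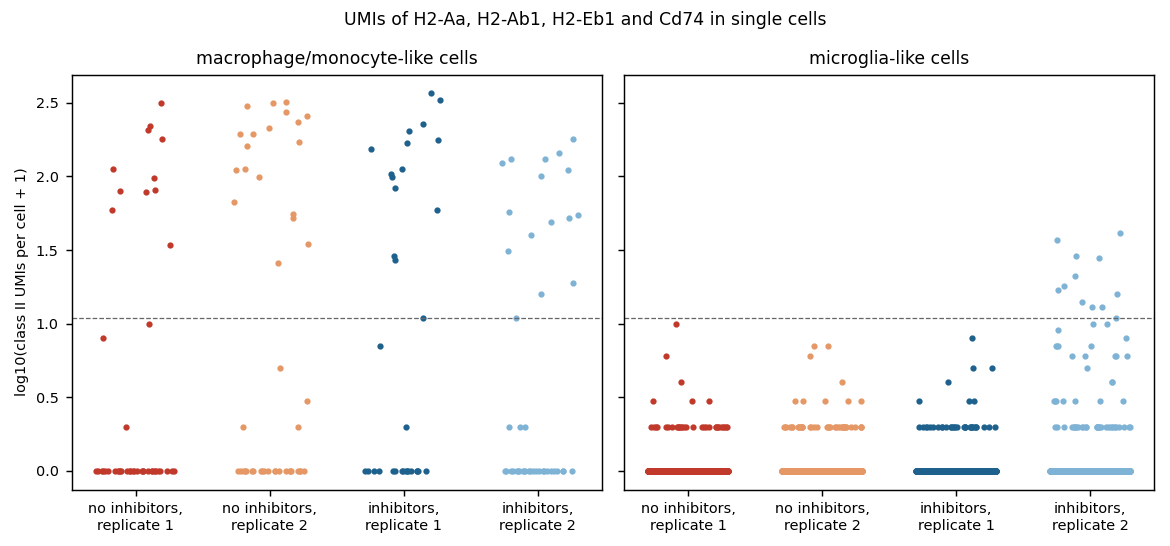
Class II UMIs per cell (log10 of UMIs + 1, vertical axis) in macrophage/monocyte-like and microglia-like cells of each library; each point is 1 cell and the dashed line marks 10 UMIs. Macrophage/monocyte-like cells fell into many at 0 and a group above 10 in every library, while 12 microglia-like cells lay at or above the line, all in inhibitor replicate 2.

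B2m, H2-K1 and H2-D1 had UMIs in all 14 classes, at levels that spanned a wide range. B2m was similar in macrophage/monocyte-like cells, at 2519, 3338, 3966 and 2936 CPM, and microglia-like cells, at 2806, 3216, 2879 and 2839 CPM, and these ranges overlapped. Endothelial-like cells came next with 1462, 1563, 1496 and 1391 CPM, and mural-like cells with 783 to 1131 CPM, each apart from the class before it. The lowest B2m levels were in ependymal-like cells, with 39.4 to 113 CPM, a range that overlapped that of the class before it. UMIs of the 8 microglia markers were also counted in such classes: they summed to 95.1 to 161 CPM in ependymal-like and 62.7 to 145 CPM in choroid plexus-like cells. The part of such UMIs in low class I levels, and in ratios formed from them, was not tested. Of all B2m UMIs in kept cells 58.2% came from microglia-like and 23.6% from endothelial-like cells.

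The heavy chains had another order. H2-D1 was at 1066 to 1553 CPM in macrophage/monocyte-like cells, 799 to 959 CPM in endothelial-like, 462 to 660 CPM in mural-like and 343 to 489 CPM in microglia-like cells. H2-K1 was at 431 to 572 CPM, 312 to 392.2 CPM, 273 to 298 CPM and 128 to 199 CPM in the same 4 classes. For both genes the macrophage/monocyte-like, endothelial-like and mural-like ranges were apart from each other. Endothelial-like cells gave 47.6% of H2-D1 and 41.1% of H2-K1 UMIs, and microglia-like cells 26.3% and 23.6%. At 1000 UMIs per cell, B2m was seen in 88.4% to 91.0% of microglia-like and 66.3% to 73.7% of endothelial-like cells, whereas H2-D1 was seen in 26.4% to 33.7% of microglia-like and 50.1% to 54.5% of endothelial-like cells. The unthinned shares were 93.7% to 96.5% and 80.7% to 83.8% for B2m. The order of B2m and of H2-D1 between microglia-like and endothelial-like cells was thus opposite in levels and in shares of cells.

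Light chain and heavy chain RNA were therefore in different proportion. Microglia-like cells had 4.68 to 5.95 B2m UMIs per UMI of H2-K1 plus H2-D1 over the 4 libraries. This ratio was 3 to 3.92 in choroid plexus-like cells (3 libraries had at least 10 heavy chain UMIs), 1.61 to 2.08 in macrophage/monocyte-like cells, 1.27 to 1.57 in astrocyte-like cells, 1.16 to 1.26 in endothelial-like cells and 1.01 to 1.24 in mural-like cells. Among classes with such values in all 4 libraries it was lowest in ependymal-like cells, at 0.4 to 0.769, where heavy chain UMIs outnumbered those of B2m. The microglia-like range was apart from that of each of these classes.

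The heavy chains also differed from each other by class. H2-K1 per H2-D1 UMI was 0.359 to 0.459 in microglia-like and 0.343 to 0.409 in endothelial-like cells, ranges that overlapped. In astrocyte-like cells it was 1.39 to 2.82, above 1 in all 4 libraries. H2-K1 there stood at 97.4, 73.9, 78.6 and 109 CPM, and H2-D1 at 36.2, 53.0, 40.1 and 38.6 CPM. Ependymal-like cells, pooled over libraries, had 1.74 (exact 95% interval 1.20 to 2.56). The 2 genes whose promoters share a run of bases thus differed in their proportion between classes.

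**Figure D3:**
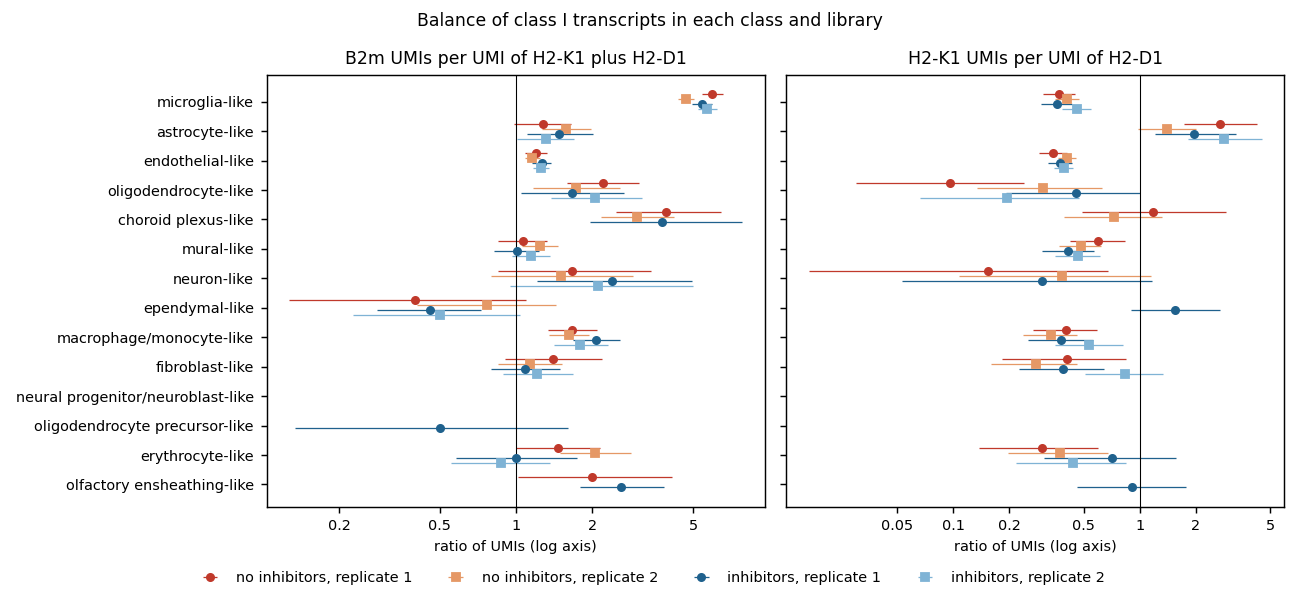
Ratios of UMIs by cell class (log axes): B2m per H2-K1 plus H2-D1, and H2-K1 per H2-D1, for libraries with at least 10 UMIs in the denominator. Points are libraries with exact 95% counting intervals; microglia-like cells lay highest in the first ratio (4.68 to 5.95), astrocyte-like cells at 1.39 to 2.82 in the second.

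Tap1 was rare throughout. It stood at 17.3, 21.5, 12.9 and 13.2 CPM in microglia-like, 16.6, 25.1, 29.5 and 16.7 CPM in endothelial-like and 22.7, 21.1, 102 and 15.5 CPM in macrophage/monocyte-like cells. All neighbouring classes overlapped, so a class could not be ranked against the next at this depth. Classes further apart did differ. Endothelial-like (16.6 to 29.5 CPM), mural-like (18.6 to 33.5 CPM) and microglia-like ranges (12.9 to 21.5 CPM) lay above those of several other classes. These were astrocyte-like (4.62 to 7.58 CPM), choroid plexus-like (1.28 to 4.41 CPM) and oligodendrocyte-like cells (0 to 1.78 CPM). Ependymal-like (0 to 12.1 CPM), fibroblast-like (0 to 10.4 CPM) and neuron-like cells (0 to 5.54 CPM) also lay below, from 6, 4 and 1 UMIs. Neural progenitor/neuroblast-like cells had 0 UMIs, which allows up to 12.8 CPM.

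Genes that serve these molecules followed either pattern. The values in this paragraph are CPM after TMM normalization within the class. Ciita was at 33.5 to 120 CPM in macrophage/monocyte-like cells (3 to 9 UMIs per library), at 0 UMIs in endothelial-like cells and at 0, 0, 0 and 8 UMIs in microglia-like cells. H2-DMa and H2-DMb1, the peptide exchange factor, were present in microglia-like cells at 249 to 261 and 134 to 155 CPM, beside 458 to 1046 and 190 to 500 CPM in macrophage/monocyte-like cells. Ctss was higher in microglia-like cells, at 3192 to 3966 CPM, than in macrophage/monocyte-like cells, at 1069 to 1417 CPM. Microglia-like cells thus held H2-DM and Ctss RNA in every library with little RNA of the class II chains. Psmb8, an immunoproteasome subunit, was at 215 to 254 CPM in microglia-like, 271 to 495 in macrophage/monocyte-like and 116 to 155 in endothelial-like cells. Its partner Psmb9 was at 59.1 to 95.6 CPM in microglia-like and 40.3 to 73.2 CPM in endothelial-like cells. Tapbp, which bridges the transporter and class I molecules, was at 147 to 167 CPM in microglia-like and 146 to 186 CPM in endothelial-like cells. Tap2 was at 33.4 to 47.4 CPM and 56.3 to 107 CPM, and the non-classical class I gene H2-T23 at 60.3 to 65.4 CPM and 101 to 124 CPM, in the same 2 classes.

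The design asked whether these genes differed when transcription and translation were blocked during dissociation. Log2 fold changes give the no-inhibitor level over the inhibitor level and come from edgeR's quasi-likelihood test on sums per animal. A call needed a Benjamini-Hochberg adjusted p below 0.05 over all genes tested, together with an absolute log2 fold change over 0.58. The labels name each library as its own mouse, so animals were the replicates. The test shares information on spread across genes, so a p-value does not measure a gene's own spread between animals alone. With 2 against 2 an exact permutation test cannot go below p = 0.333. Over all kept cells 0 of the 8 genes were called, where 0.0291% of 13756 genes were. The log2 fold changes lay between -0.02 (H2-K1) and 0.29 (H2-Ab1, SE 0.38), and the groups overlapped for all 8 genes. In such sums fewer cells of a type and less RNA per cell cannot be told apart. In macrophage/monocyte-like cells 0 of 7 genes tested were called, where 0.612% of 981 genes were. Tap1 failed the filter on low counts there. The 4 class II genes had log2 fold changes of -0.09 to 0.11 with SEs of 0.50 to 0.59, so each value was smaller than its error. The whole range over the 7 genes was -0.29 (B2m, SE 0.20) to 0.11.

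In microglia-like cells 1 of 6 genes tested was called, where 0.448% of 8714 genes were. H2-Ab1 was lower without inhibitors, at -2.46 on the log2 scale (SE 0.43, edgeR adjusted p = 7.52e-05). It had 5, 7, 16 and 49 UMIs in 4, 7, 14 and 23 cells, or 4.55, 5.56, 15.8 and 40.4 CPM. Both inhibitor libraries lay above both no-inhibitor libraries, and replicate 2 was the higher of them. The gene entered the test through the inhibitor group alone, where it is high: the low-count limit of 8.65 CPM was reached by the 2 inhibitor libraries and by neither no-inhibitor library. Without a filter it was -2.45 (adjusted p = 5.8e-07). Without inhibitor replicate 2 the log2 fold change was -1.58 and the adjusted p 0.955. With DESeq2 the adjusted p was 0.0996. Cd74, with 46, 58, 31 and 265 UMIs, changed by -1.53 on the log2 scale (SE 1.29, adjusted p = 0.978), which became 0.56 without inhibitor replicate 2, so that its sign rested on that library.

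H2-Aa, with 1, 1, 4 and 38 UMIs, and H2-Eb1, with 0, 1, 4 and 31, failed the filter on low counts in microglia-like cells. As ratios of depth-scaled UMIs without over with inhibitors, H2-Aa gave 0.0450 (exact 95% interval 0.00527 to 0.173) and H2-Eb1 0.0270 (0.000664 to 0.160), intervals of counting error that do not hold the spread between animals. Without inhibitor replicate 2 they gave 0.214 (0.0194 to 1.5) and 0.107 (0.00218 to 1.08). The class I genes were not called. Their log2 fold changes were 0.10 for B2m (SE 0.09), 0.22 for H2-D1 (SE 0.12), 0.17 for H2-K1 (SE 0.15) and 0.60 for Tap1 (SE 0.36), with adjusted p of 0.834 to 0.956. Their median was 0.19, beside -0.00275 over all genes tested in the class.

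The difference of effect between the classes was tested as a class-by-group interaction with the animal as a block. Of the 8 genes 2 passed an adjusted p of 0.05, where 0.0664% of 7532 genes did. The effect in microglia-like cells minus that in macrophage/monocyte-like cells was -2.63 for H2-Ab1 on the log2 scale (SE 0.45, edgeR adjusted p = 5.01e-05) and -4.71 for H2-Eb1 (SE 0.94, adjusted p = 0.0258). It was -4.17 for H2-Aa (SE 2.14) and -1.13 for Cd74 (SE 1.87), both with an adjusted p of 1. For B2m, H2-D1 and H2-K1 it ran from 0.12 to 0.37, also with an adjusted p of 1. The H2-Eb1 value rests on 1 UMI in the no-inhibitor microglia-like cells, and neither call was made by DESeq2. Both genes entered this fit through the macrophage/monocyte-like sums, where they are high: of the microglia-like sums, inhibitor replicate 2 alone reached the low-count limit of 18.1 CPM. Without a filter the values were -2.73 and -4.81 (adjusted p = 2.12e-05 and 0.000458). Both calls were lost without inhibitor replicate 2 (-1.40 and -2.48) and without no-inhibitor replicate 2 (-2.06 and -5.57).

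**Figure D4:**
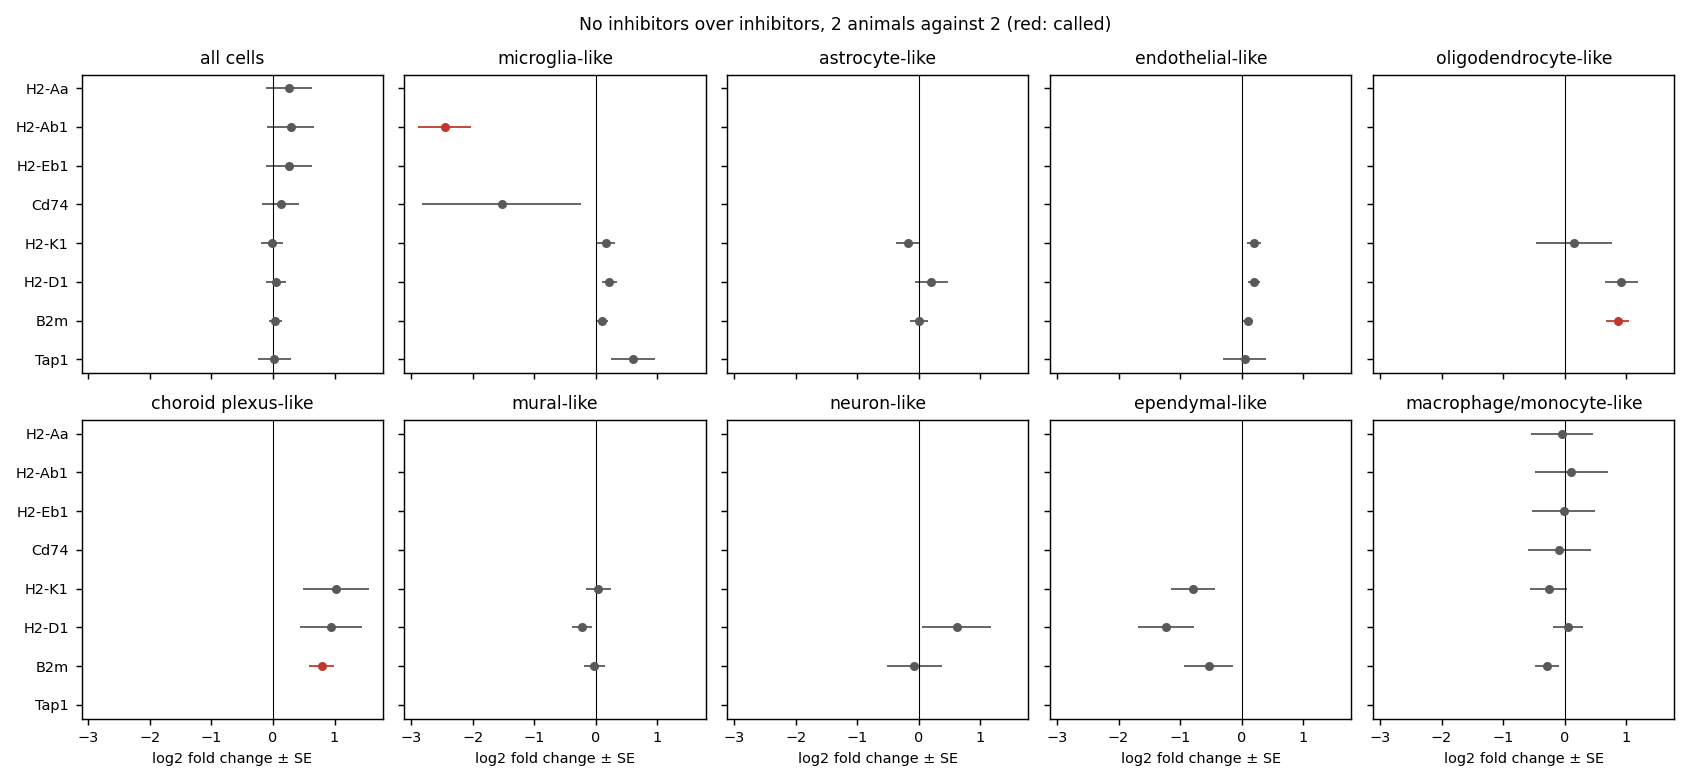
Log2 fold change (no inhibitor over inhibitor, horizontal axes) of the 8 genes in all cells and 9 classes, with SE bars from edgeR and calls in red; genes that failed the filter on low counts are absent. The calls were H2-Ab1 in microglia-like cells (-2.46) and B2m in oligodendrocyte-like cells (0.86) and in choroid plexus-like cells (0.79).

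The class II RNA of microglia-like cells in inhibitor replicate 2 came largely from few cells. Of 943 microglia-like cells in that library 12 had 10 or more class II UMIs and together held 246 of 383. In the other 3 libraries 0 of 722, 0 of 870 and 0 of 693 did. The limit is a range and not a type: 28 cells of that library had 3 or more, against 3, 4 and 4 in the other libraries. Across the 4 libraries 3043 of 3228 microglia-like cells had no class II UMI. The 12 cells had a median of 16.5 class II UMIs (10 to 40) and of 1679 UMIs in all. Cd74 was seen in all 12, H2-Aa and H2-Ab1 in 11 each and H2-Eb1 in 9. Without these cells the library had 7 H2-Aa, 13 H2-Ab1, 14 H2-Eb1 and 103 Cd74 UMIs, or 5.86, 10.9, 11.7 and 86.3 CPM, all still above both no-inhibitor libraries. The ratio without over with inhibitors was then 0.387 for H2-Ab1 (exact 95% counting interval 0.180 to 0.782) and 0.726 for Cd74 (0.556 to 0.945). The Cd74 ratio rested on that library: without inhibitor replicate 2 it was 1.44 (0.955 to 2.22), and inhibitor replicate 1, at 30.7 CPM, lay below both no-inhibitor libraries. These cells were chosen by their class II UMIs, so their class II values are a description.

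By most, but not all, microglia markers the 12 cells resembled the other microglia-like cells. The purinergic receptor P2ry12 was seen in 11 of them, Cx3cr1 and Siglech in 10 and Tmem119 in 9. Gpr34 was seen in 6, at 390 CPM beside 1158 CPM in the other microglia-like cells of the library, Fcrls in 5, at 341 beside 1046 CPM, and Sall1 in 4, at 341 beside 271 CPM. The 8 microglia markers summed to 9453 CPM, beside 12995 CPM in the other 931 microglia-like cells of the library. Of the 10 macrophage/monocyte markers 8 were at 0, among them Mrc1, Ccr2, Pf4, Ms4a7, Lyve1 and Cd163, and the list summed to 292 CPM beside 514 CPM. Dendritic cell markers summed to 390 beside 88.8 CPM with 7 of 10 at 0, and B cell markers to 439 beside 364 CPM with 6 of 8 at 0. T/NK cell and neutrophil markers were all at 0. The placing of these cells depended on the genes used: they lay in 2 microglia-like clusters (9 of 2362 cells and 3 of 866), at a coarser resolution 11 stayed microglia-like and 1 was unnamed, and with the pathway genes allowed in the clustering all 12 joined the macrophage/monocyte-like class.

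The class I genes, which were not used to pick the 12 cells, were higher in them. B2m stood at 6237 CPM beside 2781 CPM in the other 931 cells, H2-D1 at 1511 beside 323 CPM and H2-K1 at 828 beside 146 CPM. Ciita was seen in 3 of 12 cells (7 UMIs) and in 1 of 931 (1 UMI). H2-DMa stood at 877 beside 241 CPM, H2-DMb1 at 390 beside 142 CPM and Psmb8 at 731 beside 209 CPM, while Ctss differed little, at 3752 beside 3218 CPM. Irf1, an interferon-responsive transcription factor of the pathway list, was seen in 7 of 12 and 34 of 931 cells. Other leading genes were chosen after their values were seen. Ccl12, a monocyte chemokine, was in 9 of 12 cells beside 7.73% of the others, at 6627 beside 89.6 CPM. The interferon-inducible genes Gbp2, Gbp7 and Ifitm3 were in 5, 8 and 5 of 12 cells, beside 8, 56 and 34 of 931. All 12 cells are from 1 animal, so these values have no replicate and no test was made.

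**Figure D5:**
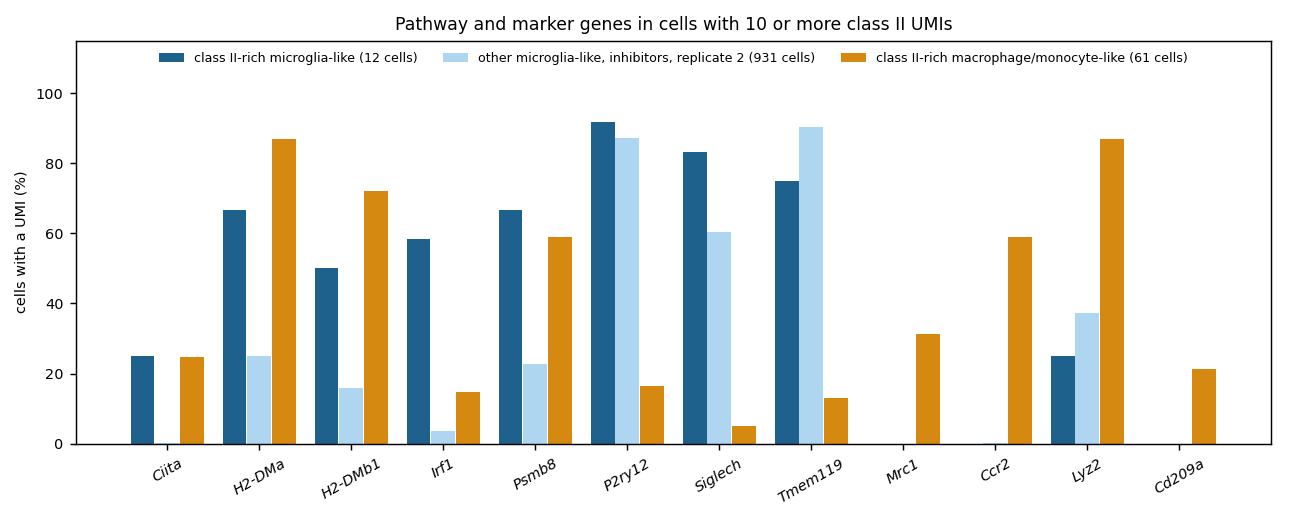
Percent of cells with a UMI (bars from 0) for 12 genes in 3 sets of cells: the 12 class II-rich microglia-like cells and the other 931 microglia-like cells of inhibitor replicate 2, and the 61 class II-rich macrophage/monocyte-like cells. The 12 cells held P2ry12, Siglech and Tmem119 and lacked Mrc1 and Ccr2, with Irf1 in 7 of 12.

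In the other 7 classes tested the class II genes failed the filter on low counts, and B2m was called in 2 classes. In oligodendrocyte-like cells B2m was higher without inhibitors, at 182, 132, 82.8 and 88.0 CPM, a log2 difference of 0.86 (SE 0.18, edgeR adjusted p = 0.0140), and 0.217% of 6459 genes were called there. The groups did not overlap. H2-D1 stood at 75.7, 58.7, 34.4 and 35.9 CPM in these cells, a log2 difference of 0.92 (SE 0.27, adjusted p = 0.120), and was called with the replicate number as a block (adjusted p = 0.0416). H2-K1 gave 0.14 (SE 0.62). All 8 microglia markers had UMIs in oligodendrocyte-like cells, and their sum of 144, 132, 105 and 122 CPM was also higher without inhibitors. Macrophage/monocyte markers summed to 3.12 to 19.6 CPM with 8 or 9 of 10 at 0, and endothelial markers to 62.6, 119, 111 and 130 CPM. Their part in the B2m result was not tested.

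In choroid plexus-like cells, the secretory epithelium of the ventricles, B2m stood at 141, 192, 113 and 101.5 CPM, a log2 difference of 0.79 (SE 0.20, edgeR adjusted p = 0.0144). Many genes were called in this class, 4.99% of 4652. H2-K1 (1.03, SE 0.53) and H2-D1 (0.94, SE 0.50) had adjusted p of 0.287 and 0.294. The groups did not overlap for B2m, while depth also fell with the group: the median UMIs per cell were 2785, 2378, 1931 and 1340.5. Microglia markers summed to 81.0, 145, 62.7 and 141 CPM with 0 to 3 of 8 at 0, and the groups overlapped. The part of depth in the result was not tested. The class joined 2 clusters, of which the smaller and deeper (median 12625 UMIs per cell) gave 12, 16, 4 and 3 cells. Without it, an alternative chosen after seeing the data, B2m in the larger cluster stood at 157, 180, 97.0 and 96.8 CPM and the difference was 0.98 (SE 0.21, adjusted p = 0.00734), while median UMIs per cell were 2493, 2179, 1900 and 1321. B2m was called in neither class by DESeq2, which gave no adjusted p for oligodendrocyte-like cells and 0.141 for choroid plexus-like cells. Leaving out 1 library kept the oligodendrocyte-like call only without no-inhibitor replicate 2, and the choroid plexus-like call only without no-inhibitor replicate 1. The adjusted p over all alternatives ran from 0.000147 to 0.356 and from 0.00204 to 0.141.

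In the other 5 classes 0 members were called, with 0.0478% of 8366 genes called in astrocyte-like, 0.0363% of 8273 in endothelial-like, 0.173% of 4621 in mural-like and 0% in neuron-like and ependymal-like cells. In endothelial-like cells, the class that held most heavy chain RNA, log2 fold changes ran from 0.04 (Tap1, SE 0.34) to 0.20 (H2-K1 and H2-D1, SE 0.12 and 0.10). In ependymal-like cells the values had the opposite sign to those in choroid plexus-like cells, at -1.23 for H2-D1 (SE 0.46), -0.79 for H2-K1 (SE 0.35) and -0.53 for B2m (SE 0.40), each with an edgeR adjusted p of 0.997. With 0 calls among 3991 genes in ependymal-like and 3272 in neuron-like cells, 150 and 99 genes had an unadjusted p under 0.05, of which 2 were members (H2-D1 and H2-K1, in ependymal-like cells).

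Among the 38 other genes of the pathway calls were made in choroid plexus-like cells alone of the 10 sets of cells tested. There 4 of 9 tested genes rose without inhibitors and 0 fell, beside 4.99% of all genes called. As for B2m, depth per cell fell with the group, and its part in these values was not tested. All 4 work in the endoplasmic reticulum or lysosome of most cells and are not particular to antigen presentation. Calr, a chaperone, had a log2 fold change of 1.16 (537, 530, 238 and 226 CPM after TMM, edgeR adjusted p = 1.63e-06). Its relative Canx had 0.83 (284, 363, 178 and 182 CPM), the disulfide isomerase Pdia3 0.84 (305, 313, 219 and 94.9 CPM) and the lysosomal protease Lgmn 1.20 (133, 143, 45.7 and 79.1 CPM), with adjusted p of 0.00163 to 0.00605. The groups did not overlap for any of these 4 genes, but they were picked by their calls, so this is no further support. The share of all genes without overlap was not counted. Without the smaller of the class's clusters Calr (0.82) and Lgmn (1.28) were called, with adjusted p of 0.00430 and 0.00614, while Pdia3 (0.81) and Canx (0.46) were not, with 0.0560 and 0.204. In microglia-like cells 0 of 30 tested genes were called (0.448% of all genes), in macrophage/monocyte-like cells 0 of 13 (0.612%), in endothelial-like cells 0 of 22 (0.0363%) and over all cells 0 of 35 (0.0291%). At an unadjusted p under 0.05 these counts were 2, 2, 3 and 2. Ciita failed the filter or was not called in each set.

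Microglia-like cells that respond to dissociation were compared with the rest of their own library. Cells were thinned to 1000 UMIs and parted by the UMIs of 25 activation genes, above or not above 7, the 99th percentile of inhibitor-treated cells. This is a cut in a range, with 8 and 16 cells within 1 UMI above it and 42 and 47 within 1 UMI of it on the other side in the 2 no-inhibitor libraries. There 249 of 648 and 219 of 737 cells lay above it, beside 3 and 3 in the inhibitor libraries. B2m stood at 2880 CPM in cells above and 2696 CPM in cells below in no-inhibitor replicate 1, and at 3513 and 3016 CPM in replicate 2. H2-D1 stood at 396 and 304 CPM, and 515 and 447 CPM. H2-K1 stood at 130 and 113 CPM, and 240 and 166 CPM. The 4 class II genes together stood at 61.3 and 42.7 CPM, and 68.9 and 38.3 CPM. These rest on 26 and 26 UMIs, and 25 and 30 UMIs, of which 21 and 25, and 22 and 27, were Cd74. All 4 quantities were higher in the cells above in both libraries, the class II sum on few UMIs. With 2 animals no test was made.

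Genes whose levels ran most like those of the 2 gene groups were found by Pearson correlation of log2 CPM over 36 sums (9 classes in 4 libraries) among 11303 genes. The points share libraries and differ mainly by class, so the values are descriptions. For the summed class II genes the closest were Cd244 (r = 0.961), Clec4a1 (0.958), Msr1 (0.954), Cd3d (0.952) and Ms4a4c (0.943), genes of leukocytes. Cd3d, a T cell receptor component, had 0 UMIs in the 61 class II-rich macrophage/monocyte-like cells. The 19 cells of that class with T/NK cell markers had 0 class II UMIs. Its likeness thus holds between classes and not between cells of the mixed class. For the summed class I genes and Tap1 they were Hlx (0.964), Psmb8 (0.963), Gpr160 (0.945), Fes (0.943) and Parp14 (0.940). Psmb8 was the gene of the pathway lists among them. B2m, with 23164 UMIs beside 6856 of H2-D1, 3060 of H2-K1 and 237 of Tap1, weighed most in this sum. Its own r with the sum was 0.984, beside 0.954 for H2-D1, 0.866 for H2-K1 and 0.856 for Tap1.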

How the data were processed

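Per the labels and the study's methods, reads were processed by the authors with Cell Ranger 3.0.0 on mm10, and the deposited values were raw UMI counts per gene and cell barcode for each of 4 libraries, not normalized. No barcode held fewer than 500 UMIs. The study's own cell names were not used here. The members and all gene lists were chosen with earlier results of these data known.

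Cells with at least 400 genes and at most 20% mitochondrial UMIs were kept (10067 of 12487 barcodes). Doublets were scored per library against 2 simulated doublets per cell with 20 neighbours, and 256 barcodes (2.54% of those that passed) were removed, at 0.8% per 1000 barcodes. Leiden clustering used 2000 variable genes, 30 principal components, 15 neighbours and resolution 1, without the pathway and activation genes. Clusters (24) were named where at least 3 markers of 1 of 18 types had a log2 fold of at least 1 and were seen in at least 10% of cells, limits set with clusters in view.

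Counts were summed per animal for all cells and for the 9 classes with at least 20 cells in every animal, and tested by edgeR (version 4.0.16, R 4.3.3) with its robust quasi-likelihood F test after filterByExpr and TMM scaling, two-sided, with Benjamini-Hochberg adjustment over all genes tested. The interaction test held the animal as a block. DESeq2 1.42.0, other normalization, filters, clusterings, a replicate block and omission of each animal were alternatives. Scripts were tested on simulated data. Cell steps ran in Python 3.11.15 with leidenalg 0.10.2, scikit-learn 1.9.0, scipy 1.17.1 and numpy 2.4.6.

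Named were the 8 members, 9 fixed genes of the pathway (Ciita, H2-DMa, H2-DMb1, Ctss, Tap2, Tapbp, Psmb8, Psmb9 and H2-T23), any other gene of the pathway lists called in a class, and the 5 genes most like each group. Positions are from GENCODE vM21. Some leading genes are not reported here.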

Additional observations from a re-analysis of the deposited data

Results flagged for a closer look

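Of the 8 genes 2 passed an edgeR test of the difference in inhibitor effect between cell classes, the class-by-group interaction with the animal as a block. Neither was called by DESeq2, nor with the pathway genes allowed in the clustering. The log2 fold change in microglia-like cells minus that in macrophage/monocyte-like cells was -2.63 for H2-Ab1 (adjusted p = 5.01e-05) and -4.71 for H2-Eb1 (adjusted p = 0.0258). Over 12 alternatives H2-Ab1 ran from -3.68 to -1.19 with adjusted p from 1.91e-11 to 1, and H2-Eb1 from -5.90 to -2.48 with adjusted p from 6.92e-12 to 1. In microglia-like cells both inhibitor libraries were above both no-inhibitor libraries for each gene, while in macrophage/monocyte-like cells the groups overlapped. H2-Ab1 had 5, 7, 16 and 49 UMIs and H2-Eb1 0, 1, 4 and 31 UMIs in the microglia-like cells of the 4 libraries, and 12 cells of inhibitor replicate 2 held 36 and 17 of them. Both genes entered this test through the macrophage/monocyte-like sums, where they are high, while of the microglia-like sums inhibitor replicate 2 alone reached the low-count limit of 18.1 CPM.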

How the results depend on the processing

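With 2 animals per group and few UMIs in several class sums, counts of called members moved easily. In microglia-like cells 1 member was called, and 0 were with DESeq2. It was 3 without a filter on low counts (H2-Aa and H2-Eb1 then being tested). It was 0 with the pathway genes allowed in the clustering, where H2-Ab1 was not tested. Of all genes there 39 of 8714 were called in the main fit and 30 of 8714 with DESeq2. Without a filter 48 of 15825 were, and 44 of 8639 with the pathway genes allowed. In the other 7 classes 2 were called, and 0 with DESeq2. Of all genes DESeq2 called 3 of 6459 in oligodendrocyte-like and 87 of 4652 in choroid plexus-like cells. For the interaction 2 were called, and 0 with DESeq2. It was 1 with the stricter cell filter (at least 500 genes and at most 10% mitochondrial UMIs) and 0 with the pathway genes allowed in the clustering. Of all genes 5 of 7532 passed in the main fit, and 0 of 7532 with DESeq2. With the stricter filter 3 of 7204 passed, and 3 of 7663 with the pathway genes allowed. Leaving out 1 animal gave 0 to 4 called members in microglia-like cells, 0 to 1 in the other classes and 0 to 4 for the interaction, and 0 in every fit of all cells and of macrophage/monocyte-like cells. The arm then left with 1 sample is assumed to vary like the other. For members that were not called, a direction was counted only where the fold change exceeded its SE in both fits. By that rule 2 reversed: Cd74 in microglia-like cells ran from -2.28 to 0.56 over the fits without 1 animal, turning sign without inhibitor replicate 2, and H2-K1 there from -0.20 to 0.44, turning sign without no-inhibitor replicate 2. Of the other fold changes under settings that kept all animals, 8 were weaker, 2 were stronger and the rest stayed on their side of the threshold. The cause was not tested.

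The replicate numbers are shared across groups, but deviations of same-numbered libraries correlated by only 0.0824 over 13734 genes, and nothing in the labels ties them to a litter or day, so the numbers served as names only. With the replicate number as a block 0 members were called over all cells, 1 in microglia-like and 0 in macrophage/monocyte-like cells. Of all genes 50 of 13756, 47 of 8714 and 0 of 981 were called in these sets. In the other classes 3 members were called, where H2-D1 in oligodendrocyte-like cells was added. Of all genes 37 of 6459 were called in oligodendrocyte-like and 305 of 4652 in choroid plexus-like cells. Leaving out macrophage/monocyte-like cells with lymphocyte or neutrophil markers, an alternative chosen after seeing the data, gave 0 called members there and 2 for the interaction. Of all genes 5 of 867 were called there and 3 of 7471 for the interaction. Leaving out the smaller choroid plexus cluster, chosen likewise, kept the B2m call there (0.98, adjusted p = 0.00734). Thinning to 500 or 1500 UMIs moved 81 of 224 shares of cells by more than 1 SD over the libraries.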
